A study of Homo sapiens with 4 samples.

Results

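The genes described here control translation through the kinase mTOR, and they were measured in ribosome footprint and RNA-seq libraries of SW480 derivatives. SW480 is an established human colorectal adenocarcinoma cell line. The members are MTOR, RPTOR, RICTOR, TSC1, TSC2, RPS6KB1, RPS6KB2, EIF4EBP1, EIF4EBP2 and LARP1, taken by gene symbol. All 10 were present in each of the 4 count files, out of 19192 genes. One line, called knockout-labelled here, carries the label LIN28B overexpression plus loss of IMP1 (gene symbol IGF2BP1), which binds RNA. The other, called OE-labelled, carries the label LIN28B overexpression alone, so both lines share the LIN28B label. Each line gave 1 RNA library and 1 footprint library, each from 3 pooled culture plates, and the sources used here do not give the number of clones behind a line.

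mTOR works in a pair of complexes. Complex 1 contains the adaptor raptor, complex 2 contains rictor, and the TSC1 and TSC2 proteins together switch off the GTPase RHEB that activates complex 1. Active complex 1 phosphorylates the S6 kinases and the 4E-BPs. Unphosphorylated 4E-BPs hold the cap-binding factor eIF4E away from eIF4G, and LARP1 binds the cap and the adjacent 5′ terminal oligopyrimidine (TOP) tract of ribosomal protein mRNAs and represses them when mTOR is inactive. Phosphorylation was not measured directly in these libraries, which show only RNA and ribosome occupancy.

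Total counts were 6813372 in knockout-labelled RNA and 5429224 in OE-labelled RNA, and 3260262 in knockout-labelled footprints and 2732760 in OE-labelled footprints. The targeted gene went against its label. IGF2BP1 had 1974 RNA counts in the knockout-labelled and 840 in the OE-labelled library, and 821 against 332 footprint counts. LIN28B had 303 against 1205 RNA counts and 46 against 190 footprint counts. Every direction below is therefore between libraries with these labels, which differ in LIN28B as well, and is not a measured loss of IMP1. Of 11 colorectal epithelial markers, 7 passed the RNA filter, among them KRT8, KRT18, EPCAM and CDH1. KRT20 and CDX1 were at 0 in all 4 libraries. The summed level of the epithelial markers in RNA was 4956 CPM (counts per 1000000 after scaling) in the knockout-labelled line and 10442 CPM in the OE-labelled line. Of the 7 measured, 6 were lower and 1 was higher in the knockout-labelled line, with log2 ratios from -1.22 to 0.89. Blood markers summed to 23.7 and 13.0 CPM in RNA, with PTPRC at 0 throughout, and fibroblast, muscle and endothelial markers to 37.3 and 24.7 CPM. The part of these differences in the results was not tested.

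No difference below has a replicate check, since each group is a single library, and no p-value was computed. Ratios are knockout-labelled over OE-labelled on the log2 scale after TMM scaling (trimmed mean of M-values) within each assay, and 95% intervals cover counting error only. Translational efficiency (TE) is the footprint log2 ratio minus the RNA log2 ratio, so chance error in RNA moves it the opposite way. A member was counted as higher or lower where its ratio was at least 1.5-fold, among genes with a mean count of at least 50. All 10 members passed this filter in RNA, and 9 passed it in footprints and TE. RPS6KB2, with 23 footprint counts in each line, did not.

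In RNA the members stood mostly a little higher in the knockout-labelled line, and in TE every measured member stood lower. In RNA, 7 of 10 log2 ratios were above 0, with a median of 0.31, against 51.1% of 9855 measured genes above 0 and a median of 0.01. In footprints, 7 of 9 were below 0 and 2 above (median -0.20), against 48.5% and 51.5% of 7323 genes (median 0.02). In TE, 9 of 9 were below 0 (median -0.31), against 50.4% of 7260 genes (median -0.00). Most of these differences were small. Past 1.5-fold there was 1 member higher in RNA (TSC1; 10.5% of all genes), 1 lower in footprints (RPTOR; 14.0% of all genes) and 1 lower in TE (RPTOR; 12.9% of all genes), shares near the background. The counting interval of TE lay below 0 for 4 members, RPTOR, MTOR, EIF4EBP1 and LARP1, and held 0 for the other measured members. The share of all genes with such an interval is not given here, so this count has no background beside it.

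**Figure D1:**
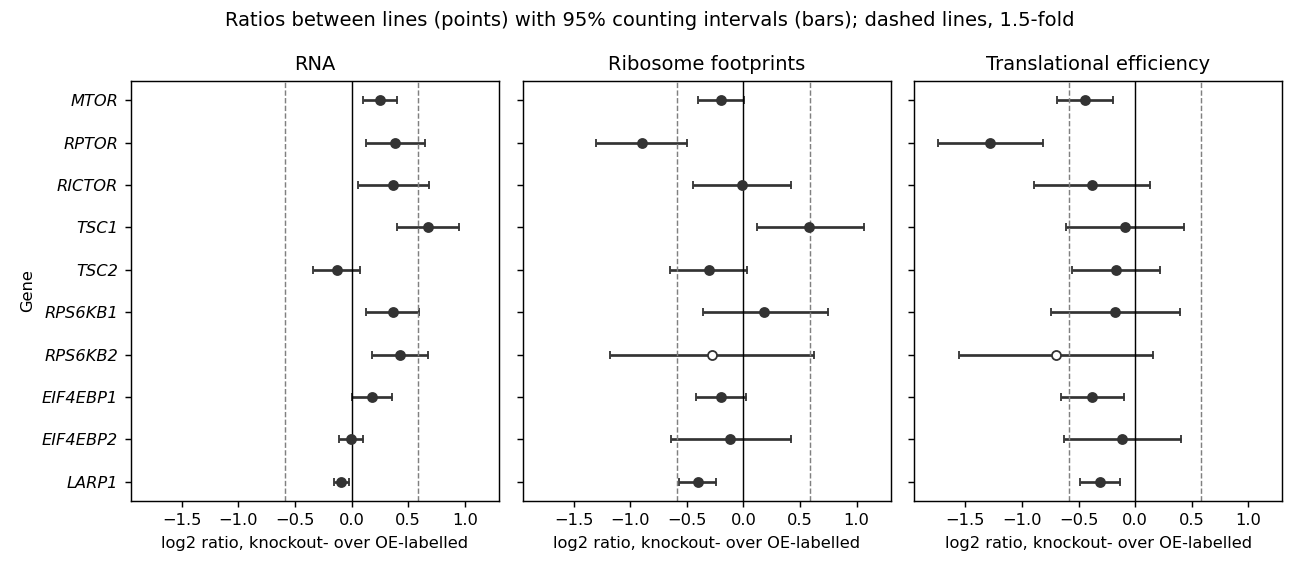
Log2 ratios of the 10 members, knockout-labelled over OE-labelled, in RNA, footprints and translational efficiency (x axis), with 95% counting intervals as bars, dashed lines at 1.5-fold and an open symbol for RPS6KB2, which missed the count filter. In translational efficiency all 9 filled symbols lie left of 0, and RPTOR, at -1.28, is the only one past 1.5-fold.

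MTOR encodes the kinase of both complexes. Its listed transcript ENST00000361445 lies on chromosome 1 from 11106535 to 11262507 (GRCh38, minus strand, 58 exons). MTOR RNA was 139.7 CPM in the knockout-labelled line and 117 CPM in the OE-labelled line (991 against 612 counts), a log2 ratio of 0.25 (0.10 to 0.40). MTOR footprints were 124 CPM against 142 CPM (408 against 386 counts), a log2 ratio of -0.20 (-0.40 to 0.01). RNA was thus higher and footprints were lower in the knockout-labelled line, and the TE log2 ratio was -0.45 (-0.69 to -0.20), with 18.7% of measured genes below it.

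RPTOR, which encodes raptor, the subunit that brings complex 1 its substrates, had the lowest TE ratio of the members. Its transcript ENST00000306801 lies on chromosome 17 from 80545268 to 80966368 (plus strand, 34 exons). RPTOR RNA was 48.9 CPM in the knockout-labelled line and 37.4 CPM in the OE-labelled line (347 against 195 counts), 1.31-fold higher. RPTOR footprints were 26.5 CPM against 49.4 CPM (87 against 134 counts), 1.86-fold lower, a log2 ratio of -0.90 (-1.31 to -0.50). The assays differed in direction, and TE was 2.43-fold lower (log2 ratio -1.28, -1.75 to -0.82), with 1.39% of measured genes below it. The other genes with a coding sequence over 4000 nt had a median TE log2 ratio of -0.12 (550 genes), and RPTOR stood 1.16 below that median.

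RICTOR encodes the defining subunit of complex 2 (ENST00000357387, chromosome 5, 38937919 to 39074408). RICTOR RNA was 33.7 CPM in the knockout-labelled line and 26.1 CPM in the OE-labelled line, a log2 ratio of 0.37 (0.06 to 0.68). RICTOR footprints were 31.1 CPM against 31.3 CPM (102 against 85 counts), a log2 ratio of -0.01 (-0.44 to 0.42). Footprints of RICTOR were level between the lines within a wide interval, and its TE log2 ratio of -0.38 (-0.89 to 0.13) held 0. Per coding length, RPTOR footprints were 1.09 times those of RICTOR in the knockout-labelled line (0.81 to 1.47) and 2.02 times in the OE-labelled line (1.53 to 2.68). In RNA the same quotient was 1.86 and 1.83, so the shift between the adaptors appeared in footprints and not in RNA.

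TSC1 and TSC2 encode hamartin and tuberin, the inhibitory complex upstream of RHEB. TSC1 (ENST00000440111, chromosome 9, 132891350 to 132928955) had 49.6 CPM of RNA in the knockout-labelled line and 31.1 CPM in the OE-labelled line (352 against 162 counts), 1.59-fold higher (log2 ratio 0.67, 0.40 to 0.95). TSC1 footprints were 33.8 CPM against 22.5 CPM (111 against 61 counts), a log2 ratio of 0.58 (0.12 to 1.06). TSC1 was thus higher by about the same amount in both assays, with a TE log2 ratio of -0.09 (-0.61 to 0.43). The 40 measured genes nearest to TSC1 had a median RNA log2 ratio of 0.02.

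TSC2 (ENST00000219476, chromosome 16, 2047465 to 2088720) had 60.7 CPM of RNA in the knockout-labelled line and 66.6 CPM in the OE-labelled line, a log2 ratio of -0.13 (-0.34 to 0.08). TSC2 footprints were 44.1 CPM against 54.6 CPM, a log2 ratio of -0.31 (-0.65 to 0.03). The pair therefore stood on opposite sides of 0. Per coding length, TSC1 RNA was 1.27 times that of TSC2 in the knockout-labelled line (1.1 to 1.46) and 0.725 times in the OE-labelled line (0.598 to 0.876). In footprints the quotient was 1.19 (0.92 to 1.53) and 0.64 (0.467 to 0.868), and the interval in the knockout-labelled line held 1. Per coding length, TSC1 thus led in knockout-labelled RNA, and TSC2 led in both assays of the OE-labelled line. The listed transcripts are 8463 nt (TSC1) and 6164 nt (TSC2) long, so the RNA order in the knockout-labelled line depends on the length used.

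The S6 kinase genes had little footprint signal. RPS6KB1, which encodes S6K1 (ENST00000225577, chromosome 17, 59893164 to 59950564), had 59.2 CPM of RNA in the knockout-labelled line and 46.0 CPM in the OE-labelled line, a log2 ratio of 0.36 (0.13 to 0.60). Its footprints were 21.0 CPM against 18.4 CPM (69 against 50 counts), a log2 ratio of 0.18 (-0.36 to 0.74). RPS6KB2, which encodes S6K2 (ENST00000312629, chromosome 11, 67428501 to 67435408), had 55.4 CPM of RNA against 41.2 CPM, a log2 ratio of 0.42 (0.18 to 0.67). Both genes were higher in knockout-labelled RNA by a similar amount. For RPS6KB2 the TE log2 ratio of -0.70 (-1.56 to 0.16) rests on 23 footprint counts per line and was not counted. Per coding length the RNA of RPS6KB1 was 0.981 times that of RPS6KB2 in the knockout-labelled line and 1.02 times in the OE-labelled line, while its footprints were 2.75 times (1.7 to 4.63) and 2.0 times (1.20 to 3.43) those of RPS6KB2. The listed transcripts are 5375 nt (RPS6KB1) and 1733 nt (RPS6KB2) long, so the RNA quotient depends on the length used.

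The 4E-BP genes differed from each other more than between lines. EIF4EBP1 (ENST00000338825, chromosome 8, 38030341 to 38060365), which encodes 4E-BP1, had 94.6 CPM of RNA in the knockout-labelled line and 83.4 CPM in the OE-labelled line (671 against 435 counts), a log2 ratio of 0.18 (0.00 to 0.36). EIF4EBP1 footprints were 107 CPM against 124 CPM (353 against 335 counts), a log2 ratio of -0.20 (-0.42 to 0.02). Its RNA was slightly higher and its footprints were slightly lower in the knockout-labelled line, giving a TE log2 ratio of -0.38 (-0.66 to -0.10). The other genes with a coding sequence of at most 700 nt had a median of 0.10 (1384 genes), so EIF4EBP1 stood 0.48 below that median.

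EIF4EBP2 (ENST00000373218, chromosome 10, 70404379 to 70428618), which encodes 4E-BP2, had 244 CPM of RNA in the knockout-labelled line and 245 CPM in the OE-labelled line (1734 against 1276 counts). EIF4EBP2 footprints were 20.1 CPM against 21.8 CPM (66 against 59 counts). Neither assay separated the lines, with log2 ratios of -0.00 (-0.11 to 0.10) in RNA and -0.12 (-0.64 to 0.42) in footprints. Per coding length, EIF4EBP1 had 0.394 times the RNA of EIF4EBP2 in the knockout-labelled line and 0.347 times in the OE-labelled line. Its footprints were 5.44 times (4.17 to 7.19) and 5.77 times (4.37 to 7.75) those of EIF4EBP2. Per coding length, EIF4EBP2 thus led in RNA and EIF4EBP1 led in footprints in both lines. The listed transcripts are 1020 nt (EIF4EBP1) and 7257 nt (EIF4EBP2) long, so the RNA order depends on the length used. Set against EIF4E, the target of both proteins, EIF4EBP1 footprints per coding length were 2.40 times as many in the knockout-labelled line (2.04 to 2.82) and 1.90 times in the OE-labelled line (1.63 to 2.22).

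LARP1 had the most counts of the members in both assays and so the narrowest intervals. Its transcript ENST00000336314 lies on chromosome 5 from 154712902 to 154817607 (plus strand, 19 exons). LARP1 RNA was 541 CPM in the knockout-labelled line and 575 CPM in the OE-labelled line (3836 against 2999 counts), a log2 ratio of -0.09 (-0.16 to -0.02). LARP1 footprints were 174 CPM against 229.7 CPM (570 against 623 counts), a log2 ratio of -0.40 (-0.57 to -0.24). Footprints were lower by more than RNA, and the TE log2 ratio was -0.31 (-0.49 to -0.14), a difference of 1.24-fold with 26.1% of measured genes below it. The RNA sign of LARP1 depended on the scaling, with 0.03 under total counts, while its footprint ratio lay between -0.41 and -0.38 under the 5 scalings. The paralogue LARP1B was far lower: per coding length, LARP1 had 17.9 times its RNA in the knockout-labelled line and 17.6 times in the OE-labelled line. In footprints the quotient was smaller, 5.33 (4.28 to 6.68) in the knockout-labelled line and 7.07 (5.59 to 9.06) in the OE-labelled line. The listed LARP1 transcript is 6595 nt long with 3057 nt of coding sequence, and the RNA quotients take no account of transcript length.

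**Figure D2:**
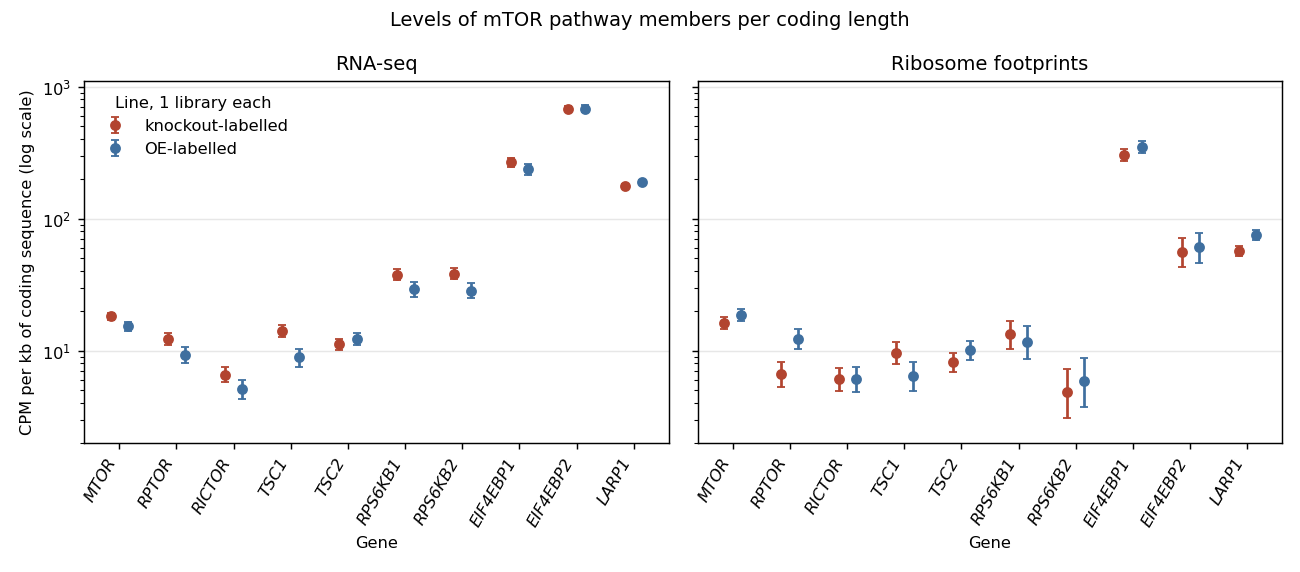
Levels of the 10 members in CPM per kb of coding sequence (log scale) in RNA-seq and in ribosome footprints, with knockout-labelled libraries left of OE-labelled ones and bars for 95% Poisson counting intervals. On this scale of coding length EIF4EBP2 is highest in RNA, at 679 and 679.9, and EIF4EBP1 is highest in footprints, at 304 and 349. Transcript length is not taken into account.

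On the scale of CPM per kb of coding sequence, the order of the members in RNA began with EIF4EBP2, EIF4EBP1 and LARP1 in both lines, at 679, 267 and 177 in the knockout-labelled library and 679.9, 236 and 188 in the OE-labelled library. None of these neighbours overlapped in their counting intervals. RPS6KB1 and RPS6KB2 followed, between 28.5 and 38.3, and could not be separated from each other in either line. MTOR, at 18.3 and 15.4, came next in both lines, and RICTOR was last, at 6.57 and 5.09. TSC1, RPTOR and TSC2 lay between 8.90 and 14.2 and were not in the same order in the lines. In footprints EIF4EBP1 led, followed by LARP1 and EIF4EBP2, whose intervals overlapped, and RPS6KB2 was last, at 4.84 in the knockout-labelled and 5.86 in the OE-labelled library. From MTOR down, each member's footprint interval overlapped the next in the knockout-labelled library, so the order of neighbours there is not resolved, while MTOR lay above TSC1 and all members below it. The counted part of each transcript is not known from the labels or headers, so levels per coding length of RNA may include reads of untranslated parts.

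Within a line, footprint CPM over RNA CPM compares the ribosome occupancy of genes. Of the 9 measured members, 6 lay at least 1.5-fold below the median gene in the knockout-labelled line (29.7% of all genes) and 4 in the OE-labelled line (28.7% of all genes), and none lay at least 1.5-fold above in either line (24.9% and 24.1% of all genes). EIF4EBP2 had the lowest quotient, 0.0828 in the knockout-labelled line and 0.0896 in the OE-labelled line, with 0.317% of measured genes below it in each. LARP1 stood at 0.321 and 0.400, with 5.66% and 8.36% of genes below it. RPS6KB1 stood at 0.357 and 0.404. RPS6KB2, which missed the filter, stood at 0.129 and 0.2096. These 4 genes were therefore among those with the fewest footprints per RNA fragment in both lines.

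EIF4EBP1 was the member with the highest quotient, 1.14 in the knockout-labelled line and 1.48 in the OE-labelled line. MTOR stood at 0.89 and 1.21, RICTOR at 0.924 and 1.20, TSC1 at 0.683 and 0.727 and TSC2 at 0.728 and 0.821. RPTOR stood at 0.544 and 1.32, with 16.4% of genes below it in the knockout-labelled line and 58.6% in the OE-labelled line, the widest shift in rank of the members. The quotient was lower the longer the untranslated parts were: its median log2 value was 0.54 and 0.52 over the fifth of genes with the shortest transcripts per coding length and -0.30 and -0.35 over the fifth with the longest. The EIF4EBP2 transcript is 7257 nt long with 360 nt of coding sequence. With footprints taken per coding length and RNA per transcript length, 31.8% and 36.1% of genes lay below EIF4EBP2, 18.8% and 22.4% below RPS6KB1, 6.40% and 8.80% below LARP1 and 0.234% and 0.331% below RPS6KB2. The low place of EIF4EBP2, and to a lesser degree that of RPS6KB1, thus moved with the length used, while LARP1 and RPS6KB2 stayed under 10% of genes. Other members moved as well. The share of genes below TSC2 went from 26.5% and 31.3% to 9.23% and 10.5%. For MTOR it went from 35.5% and 52.8% to 13.5% and 22.3%. RPTOR moved down to 10.3% and 45.2% and RICTOR to 33.5% and 48.7%. TSC1 moved up to 31.5% and 34.6%, and EIF4EBP1 to 69.6% and 83.1%.

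**Figure D3:**
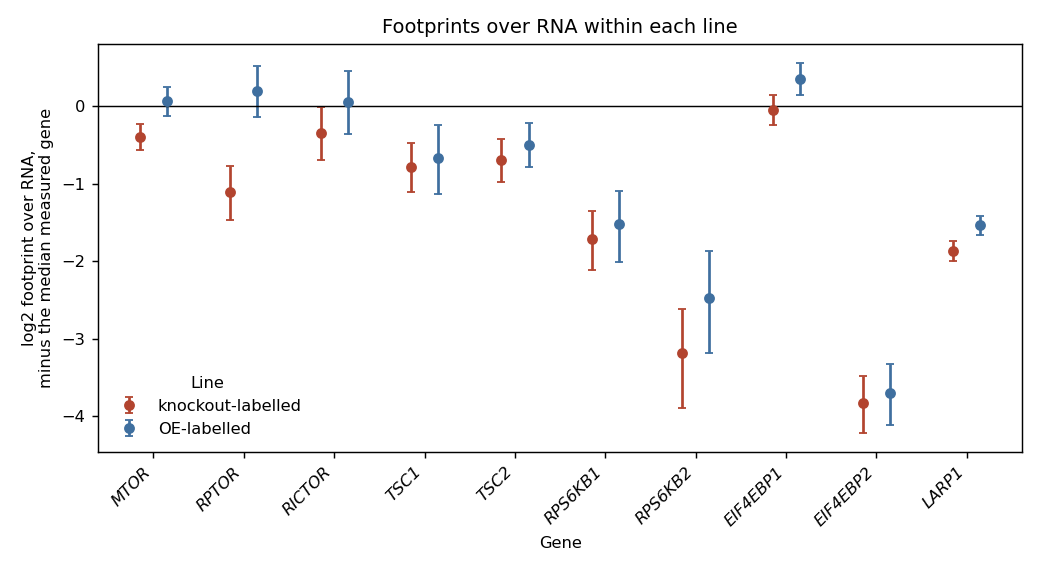
Log2 footprint CPM over RNA CPM of each member within each line, minus the median of 7260 measured genes (y axis), knockout-labelled left of OE-labelled, with 95% counting intervals as bars. EIF4EBP2 and RPS6KB2 lie lowest in both lines, and RPTOR shows the widest gap between lines, -1.11 against 0.19.

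Among the other subunits and assembly factors of the mTOR complexes, 6 of 9 genes were measured in TE. Of these, 1 was at least 1.5-fold higher and none was lower (13.4% and 12.9% of all genes), with a median of -0.20. TELO2, a chaperone of mTOR and related kinases, was the higher one, at a TE log2 ratio of 1.05 (0.46 to 1.63) with 85 against 151 RNA counts and 83 against 80 footprint counts. RNA of TELO2 was 2.41-fold lower and its footprints were 1.17-fold lower, so its TE ratio came mainly from RNA. MAPKAP1, which encodes the complex 2 subunit SIN1, stood at -0.15 (-0.47 to 0.18), and TTI1, a partner of TELO2, at 0.06.

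Of 14 upstream genes around RHEB, PI3-kinase and AKT, 9 were measured in TE, with none at least 1.5-fold higher and 1 lower (13.4% and 12.9% of all genes), and a median of 0.19. PIK3CB, a catalytic subunit of PI3-kinase, had a TE log2 ratio of -0.77 (-1.10 to -0.45), from 169 against 216 footprint counts. DDIT4, which encodes REDD1, an inhibitor of complex 1 that acts through TSC2, had 4045 against 2736 footprint counts and a TE log2 ratio of 0.53 (0.43 to 0.63), short of 1.5-fold. The kinase gene AKT1 stood at 0.26 (-0.12 to 0.63).

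The amino acid sensing branch brings complex 1 to the lysosome. Of its 34 listed symbols, some of them synonyms, 28 were in the files and 17 were measured in TE, of which 2 were at least 1.5-fold higher and 4 lower (13.4% and 12.9% of all genes), with a median of -0.20. The higher ones were LAMTOR4 (0.87, 0.62 to 1.13; 645 against 333 footprint counts) and LAMTOR1 (0.76, 0.19 to 1.33; 85 against 44), subunits of the Ragulator scaffold that anchors Rag GTPases. NPRL3, a subunit of the GATOR1 complex that restrains Rag GTPases, was among the lower ones at -0.79 (-1.19 to -0.39), and so was MIOS, a subunit of GATOR2 which opposes GATOR1, at -0.61 (-1.08 to -0.15). FNIP1, a partner of folliculin, stood at -0.83 and GATSL2 at -1.16. SEH1L, shared by GATOR2 and the nuclear pore, stood at -0.50 (-0.75 to -0.26). In all, 4 of the 17 stood above 0 and 13 below, against 49.6% and 50.4% of all genes.

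Of 19 cap-binding partners, 15 were measured in TE, with 1 at least 1.5-fold higher and 1 lower (13.4% and 12.9% of all genes) and a median of -0.23. The higher one was PAIP1, a partner of poly(A)-binding protein, at 0.86 (0.49 to 1.23), and the lower one was EIF4G3, an eIF4G paralogue, at -0.70 (-1.03 to -0.36). EIF4E itself had 606 against 445 RNA counts and 271 against 324 footprint counts, a TE log2 ratio of -0.53. EIF4G2, a translation factor related to eIF4G, stood at -0.19 and PABPC1 at 0.23. In the S6 kinase branch 9 of 11 genes were measured, with 1 higher and 2 lower (again beside 13.4% and 12.9% of all genes) and a median of -0.10. EIF4B, which encodes an S6 kinase substrate that assists the helicase eIF4A and whose mRNA is itself a TOP mRNA, was higher at 0.75 (0.65 to 0.85). RPS6KA3, which encodes an RSK kinase of the ERK pathway, at -0.69 and GSK3B, a kinase restrained by AKT, at -0.82 were lower, and RPS6, the ribosomal protein after which the kinases are named, stood at 0.58 (0.50 to 0.66). The 6 LARP paralogues had a median of -0.01, with LARP7, a partner of the small nuclear RNA 7SK, at 1.04 (0.45 to 1.63) and LARP4B at -0.63 (-1.10 to -0.17). LARP4 stood at -0.13 and SSB, which encodes the La protein, at 0.20.

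The mRNAs that mTOR and LARP1 are known to control stood on the other side of 0 from the members. All 79 cytosolic ribosomal protein genes were measured. Their median log2 ratio was -0.30 in RNA, 0.34 in footprints and 0.68 in TE. In TE 42 of 79 were at least 1.5-fold higher (13.4% of all genes) and none was at least 1.5-fold lower (12.9% of all genes), and 76 were above 0 (49.6% of all genes). In footprints 12 were at least 1.5-fold higher, a share near the background (15.0% of all genes), and none was lower (14.0% of all genes). In RNA 12 were at least 1.5-fold lower (10.5% of all genes) and none was higher (10.5% of all genes). RPLP2, a stalk protein of the large subunit, was highest in TE at 1.38 (1.26 to 1.51), with 2557 against 2998 RNA counts and 2536 against 1280 footprint counts. RPL31 followed at 1.17 and RPL23A at 1.11. RPS26 at -0.29 and RPS21 at -0.21 were among the lowest. The opposite offsets of RNA and footprints thus both entered the TE value. Ribosomal protein genes have many processed pseudogenes, and counts of single genes are uncertain where reads are shared with them. The other genes of at most 700 nt of coding sequence, the length class of most ribosomal proteins, had a median TE log2 ratio of 0.10.

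Of 27 other TOP mRNAs in the files, all were measured, and 11 were at least 1.5-fold higher in TE and none lower (13.4% and 12.9% of all genes). Their median was 0.45, and 26 of 27 were above 0 (49.6% of all genes). In RNA the median was -0.41 and in footprints 0.05. EIF3L, a subunit of the initiation factor eIF3, was highest at 1.08 (0.89 to 1.27), followed by the elongation factor gene EEF1D at 0.86 and COX7C, a subunit of cytochrome c oxidase, at 0.82. RABGGTB at -0.27 (-0.55 to 0.02), TOMM7 at 0.01 and NPM1 at 0.01 were the lowest. Within the lines, the median log2 footprint over RNA of the ribosomal proteins, relative to the median gene, was 0.44 in the knockout-labelled line and -0.20 in the OE-labelled line, with 57 and 29 of 79 above that gene. The TE medians thus lay on opposite sides of 0, at -0.31 for the 9 members, 0.45 for the TOP mRNAs and 0.68 for the ribosomal proteins. After subtracting the median of the coding length class, the members had a median of -0.21 and the ribosomal proteins one of 0.60. A link between the sets was not tested. With 1 library per line this remains a description of 4 libraries.

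**Figure D4:**
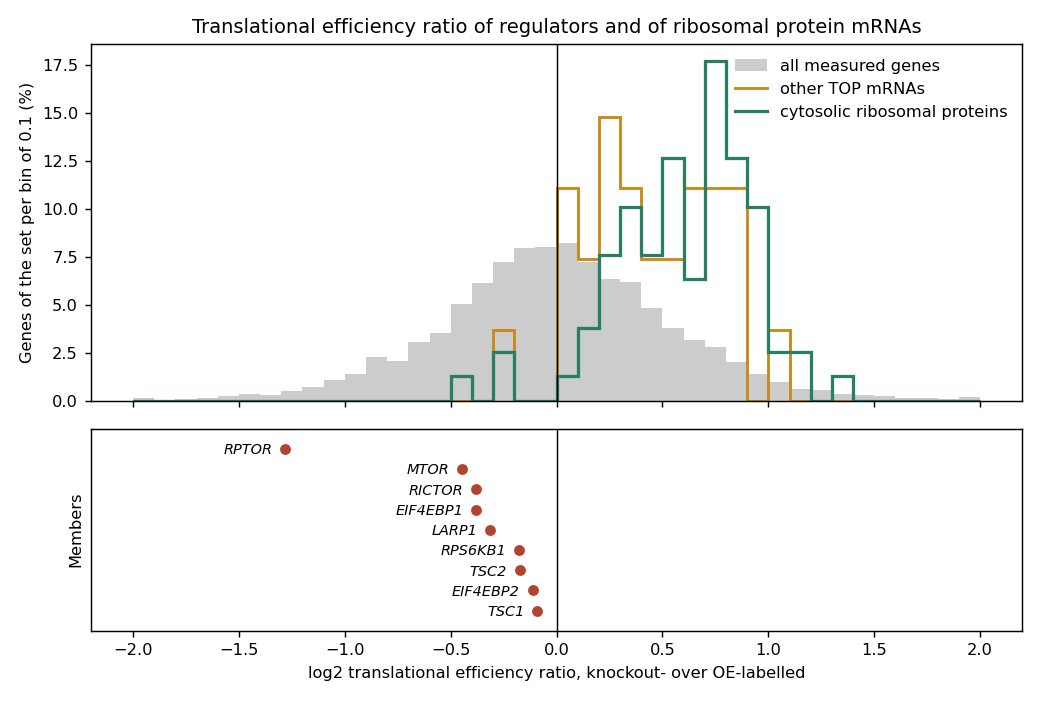
Top, share of genes per bin of the log2 translational efficiency ratio (x axis, knockout-labelled over OE-labelled) for all measured genes, 27 other TOP mRNAs and 79 cytosolic ribosomal proteins, with values beyond the axis placed in the end bins. Bottom, the 9 measured members on the same axis, all left of 0, while 76 ribosomal proteins lie right of it.

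The starts of these mRNAs differ in the sequence that LARP1 is known to bind. A TOP start was searched on the transcribed strand as a C at the annotated RefSeq start (GRCh38.p14) followed by at least 4 bases that are each C or T. It was found at 47 of the 63 ribosomal protein genes and 19 of the 21 other TOP genes with an entry, against 472 of 5650 measured genes with an entry (8.35%) and 4.07% of all 35116 starts in the table. The other TOP genes were listed as TOP mRNAs, so their share is not a result. The 5650 measured genes include both sets, and a gene was counted if any of its starts matched. None of the 9 members with an entry had a TOP start at any listed start. This says only that these letters are not at the annotated starts. The windows below run from 10 bases before to 20 bases from the annotated start, with the pyrimidine run of a TOP start in capitals. They show ribosomal protein mRNAs from both ends of the TE order, substrates of S6 kinase, and 3 members for contrast. The windows are chr11:809957-809986 (plus strand) for RPLP2, chr2:101002279-101002308 (plus) for RPL31, chr20:62387093-62387122 (plus) for RPS21, chr9:19380217-19380246 (minus) for RPS6 and chr12:53006446-53006475 (plus) for EIF4B. Those of the members are chr1:11262532-11262561 (minus) for MTOR, chr17:80544828-80544857 (plus) for RPTOR and chr5:154712833-154712862 (plus) for the LARP1 start nearest to the listed transcript.
RPLP2: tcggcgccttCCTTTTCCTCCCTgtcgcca
RPL31: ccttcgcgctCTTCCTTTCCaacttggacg
RPS21: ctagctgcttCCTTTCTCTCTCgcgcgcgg
RPS6: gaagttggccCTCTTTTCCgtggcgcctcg
EIF4B: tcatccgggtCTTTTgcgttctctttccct
MTOR: tccttccctcgctcccggcttagaggacag
RPTOR: tgcattctgggtcctggcaatatggcgtcc
LARP1: gagctcccgggccagagccaggaggcagct

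The pyrimidine run was 13 bases in RPLP2, 10 in RPL31, 12 in RPS21, 9 in RPS6 and 5 in EIF4B. RPS21, with a run nearly as long as that of RPLP2, had a TE log2 ratio of -0.21. RPS26, also among the lowest ribosomal proteins in TE, had no TOP start at its annotated start. RPLP2, RPL31, RPS21 and RPS26 were named for their place in the TE order, and a link of run length to TE was not tested. Ribosomal protein genes with a TOP start had a median TE log2 ratio of 0.70 (47 genes, 26 at least 1.5-fold higher), and those without one at a listed start 0.53 (16 genes, 7 at least 1.5-fold higher). Among all genes 13.4% were at least 1.5-fold higher. Both groups stood above the median gene, and none of their genes was at least 1.5-fold lower (12.9% of all genes).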

How the data were processed

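Ribosome footprints and fragmented total RNA of 2 SW480 lines were measured in 4 libraries, grouped by genotype label and assay. Per the file headers, the authors deposited raw counts for each gene and list 1 transcript beside it. The tools HISAT2 2.1.0, Bowtie 1.1.2 and cutadapt 1.10 and the build GRCh38 are named, without role or order, per the submitters' processing notes. Which program counted the reads, over which part of a transcript and on which annotation is not given in the sources used here. Nor is any removal of PCR duplicates, and duplicates would make the intervals too narrow. For 1 library the labels give SW840 as cell line and SW480 as source, and SW480 was used.

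Counts were scaled within each assay by TMM (edgeR 4.0.16, R 4.3.3). The log2 ratio has 0.5 added to each count and an exact conditional binomial (Clopper-Pearson) 95% interval; levels have exact Poisson intervals, and TE has a Wald interval from the 4 counts. An interaction model needs replicates and was not fitted. GENCODE release 29 gave coordinates and lengths of the listed transcripts (19176 of 19192 identifiers found). TOP starts and sequences are from RefSeq promoters (GRCh38.p14). Members and lists were chosen with earlier results of these data known. All members are named; from each other list, the genes past 1.5-fold in TE, up to 4, and the 2 with most RNA counts; from the ribosomal protein and TOP lists, the 3 highest and 3 lowest in TE with mean counts of at least 200, of which 1 is not reported here. EIF4E, FNIP1, GATSL2 and TSC1's neighbours are outside this rule. The steps were tested on simulated Poisson counts. Other scalings tried were size factors of DESeq2 1.42.0, the upper quartile, and library totals including or leaving out the mitochondrial genome. Other settings were count minimums of 10, 200 or none, 5 added to each count and 2-fold; corrections for coding length, nearest genes and transcript length were added after the data were seen. Intervals were computed with scipy 1.17.1 under Python 3.11.15.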

Additional observations from a re-analysis of the deposited data

How the results depend on the processing

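The log2 TE ratio of all 9 measured members lay below 0 under each of the 5 scalings, with a median between -0.41 and -0.27, and that of RPTOR lay between -1.38 and -1.23. The ribosomal proteins had a TE median between 0.58 and 0.73 and 75 or 76 genes above 0. Total counts moved the median RNA ratio of all genes to 0.13 and brought all but TSC2 of the members above 0 in RNA. Under library totals, including or leaving out the mitochondrial genome, the RNA median of the ribosomal proteins was -0.18 and -0.19, with 3 and 4 genes at least 1.5-fold lower. Under these scalings and the upper quartile, 1 member, TSC1, was at least 1.5-fold higher in footprints. With a count minimum of 10 or none, RPS6KB2 entered and 2 members were lower in TE. With a minimum of 200, 9 members were left in RNA and 3 in footprints and TE, with 0 lower in footprints and 0 lower in TE. In footprint over RNA, 2 (knockout-labelled) and 1 (OE-labelled) then lay at least 1.5-fold below the median gene. At 2-fold, 0 members were higher in RNA and 0 lower in footprints, and among ribosomal proteins 1 was lower in RNA, 1 higher in footprints and 5 higher in TE. After subtracting the median of the coding length class, 8 of 9 members were below 0, TSC1 being the exception. With lengths taken per assay, 1 member, EIF4EBP1, was above the median gene by 1.5-fold in the OE-labelled line. No paired analysis was possible because each group holds 1 library.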

Other observations

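A TOP start by the same definition was also present at 406 measured genes outside the ribosomal protein and TOP lists. Their median log2 ratio was -0.08 in RNA, -0.01 in footprints and 0.02 in TE, against 0.04, 0.03 and -0.02 for 5160 such genes without a TOP start. In TE, the share at least 1.5-fold higher was 13.1% with a TOP start and 12.7% without, and the share 1.5-fold or more lower was 11.1% and 13.4%. The medians of these genes lay near those of genes without a TOP start, while the listed TOP mRNAs had a TE median of 0.45 and the ribosomal proteins one of 0.68. The difference between the sets was not tested.

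TE followed coding length across genes other than the members and the ribosomal proteins. Its median log2 ratio was 0.10 for coding sequences of at most 700 nt (1384 genes), 0.07 up to 1000 nt (949 genes), -0.01 up to 2000 nt (2607 genes), -0.12 up to 4000 nt (1674 genes) and -0.12 above that (550 genes). MTOR, RPTOR, RICTOR and TSC2 are in the longest class, where 61.8% of genes were below 0.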
